A study of Mus musculus with 10 samples.

Results

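The 10 genes studied here are transmitter and identity genes of amacrine cells, the inhibitory and modulatory interneurons of the inner retina. They are not all confined to those cells, as given below for Slc6a9 and Calb2. They were followed through late mouse retina development by their H3K4me2 and H3K27me3 occupancy around the transcription start site (TSS). Members were taken by symbol, with case ignored and a trailing entry number dropped, and the rule used no measured value, although the members were proposed with earlier results of these data known. The 10 members were 10 of 20044 symbols and had 12 of 25152 entries in the gene enrichment table, since Tcfap2a and Tcfap2b each had 2 entries. Their order here follows their roles, namely the synthesis and transport of GABA (Gad1, Gad2, Slc32a1), glycine uptake (Slc6a9), acetylcholine (Chat, Slc18a3), dopamine (Th), calcium binding (Calb2) and the AP-2 transcription factors (Tcfap2a, Tcfap2b).

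Chromatin from whole retinas of mice, at least 20 retinas pooled at each stage, was digested with micrococcal nuclease and sequenced after immunoprecipitation (ChIP-Seq) with antibodies to histone H3 dimethylated at lysine 4 (H3K4me2) or trimethylated at lysine 27 (H3K27me3). The 4 stages were E17.5 (embryonic, E17 in the sample titles) and postnatal days 1, 7 and 15 (PN1, PN7 and PN15). A single library was made per stage with each antibody, so that no difference could be set against replicate error and no test was possible. GEO's labels name Pde6b (rd1/rd1) mutant mice as the strain of every sample, whereas the study describes the developmental patterns as those of wild type retina. Its methods name C57BL/6j and rd1/rd1 mice without giving the strain of each stage. They describe the rd1/rd1 retinas, which lose their rods, as a control. An H3K4me2 library of rd1/rd1 retinas and an anti-GFP control library were not analysed here.

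Amacrine cells are born early among retinal cell types and most release GABA or glycine, the fast inhibitory transmitters of the inner plexiform layer. Small subsets add acetylcholine (the starburst cells) or dopamine, and Tcfap2a and Tcfap2b are transcription factors of their differentiation. H3K4me2 is found at active and poised promoters, and H3K27me3 is deposited by the Polycomb repressive complex at genes held silent. A whole retina mixes the cells that use an amacrine gene with the larger number that do not.

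Each value is the normalized occupancy of 1 mark in the 5 kb around a TSS, so that levels of 1 mark can be compared between genes. The 2 marks came from different antibodies and libraries, so that their levels cannot be compared with each other. In each library 1 read added at most about 1 unit, since every whole number from 0 to at least 109 occurred. The 95% intervals below are exact Poisson intervals, or exact conditional binomial intervals for a ratio, with 1 unit taken as 1 read, so that they are at least about as wide as the counting error. They cover counting error only. Because the retina was taken whole, a value can come from amacrine cells or from the other cells. A change in the mixture of cells and a change of a mark within any of them cannot be told apart. The library median over all symbols was 24 to 42 for H3K4me2 and 9 to 11 for H3K27me3. Entries at 0 made up 19.5% of the H3K4me2 library of PN7 and at most 2.52% of the other H3K4me2 libraries. As an internal background, the 95th percentile of the 1053 olfactory receptor entries was 1 to 8 for H3K4me2 and 21 to 29 for H3K27me3. The widely expressed genes Actb, Gapdh and Uba1 had 23 to 143 units of H3K4me2 and 2 to 8 of H3K27me3. Among the markers of other cells, the rod list reached a median H3K4me2 of 112 at PN15 from 11 at E17.5, with 12 of 12 genes at least 2-fold higher, while the H3K4me2 medians of the pigment epithelium, lens and blood lists stayed between 1 and 12.

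The DNA ahead of the start sites is shown for 5 genes that stand for the different patterns described below, namely the 2 glutamate decarboxylase genes, the glycine transporter, the vesicular acetylcholine transporter and tyrosine hydroxylase. Each run is the 250 bases upstream of a RefSeq start (build GRCm38.p6), 5′ to 3′ on the strand of the gene, with the CpG dinucleotides in capitals. The positions are chr2:70561879-70562128 (plus strand) for Gad1, chr2:22622077-22622326 (plus) for Gad2, chr4:117835008-117835257 (plus, the first of 3 starts) for Slc6a9, chr14:32464851-32465100 (minus) for Slc18a3 and chr7:142899996-142900245 (minus) for Th.
Gad1: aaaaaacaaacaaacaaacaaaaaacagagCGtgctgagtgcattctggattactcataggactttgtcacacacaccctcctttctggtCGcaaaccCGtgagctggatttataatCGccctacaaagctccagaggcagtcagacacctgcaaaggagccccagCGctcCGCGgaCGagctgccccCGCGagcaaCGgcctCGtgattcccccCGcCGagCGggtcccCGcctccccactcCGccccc
Gad2: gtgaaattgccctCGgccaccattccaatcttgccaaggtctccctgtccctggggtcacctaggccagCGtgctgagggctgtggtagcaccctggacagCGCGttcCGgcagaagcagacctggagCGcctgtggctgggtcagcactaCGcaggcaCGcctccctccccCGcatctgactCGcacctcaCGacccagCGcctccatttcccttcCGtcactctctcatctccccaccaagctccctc
Slc6a9: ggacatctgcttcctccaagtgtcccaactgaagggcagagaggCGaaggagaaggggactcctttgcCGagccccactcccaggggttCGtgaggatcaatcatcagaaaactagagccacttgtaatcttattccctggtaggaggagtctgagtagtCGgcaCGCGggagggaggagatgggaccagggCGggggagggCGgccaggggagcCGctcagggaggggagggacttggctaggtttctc
Slc18a3: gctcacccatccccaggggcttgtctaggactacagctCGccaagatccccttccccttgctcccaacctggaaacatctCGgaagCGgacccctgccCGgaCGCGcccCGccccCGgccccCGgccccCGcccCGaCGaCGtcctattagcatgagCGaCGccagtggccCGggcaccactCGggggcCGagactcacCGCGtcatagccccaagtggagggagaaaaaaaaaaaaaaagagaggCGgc
Th: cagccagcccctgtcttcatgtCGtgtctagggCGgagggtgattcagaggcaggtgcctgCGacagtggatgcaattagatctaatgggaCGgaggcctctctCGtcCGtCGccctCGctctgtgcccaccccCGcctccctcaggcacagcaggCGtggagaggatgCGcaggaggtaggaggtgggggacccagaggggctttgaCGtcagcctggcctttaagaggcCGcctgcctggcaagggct

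The runs held 17 CpG for Gad1, 13 for Gad2, 9 for Slc6a9, 21 for Slc18a3 and 13 for Th. RefSeq promoters of 300 bases (250 before to 50 after the start) were matched for 9 of the 10 members in 12 windows, and Calb2 had no entry. These windows had 8 to 27 CpG, and all 12 were above the median of 7 over 32851 promoters. The Slc18a3 window was the richest, with 27 CpG and 67% G and C, more CpG than 84.5% of promoters. Of the motifs searched on both strands, the cyclic AMP response element TGACGTCA lay 45 to 38 bases before the Th start and in none of the other windows, against 1.79% of all promoters. TATAAA was found in Gad1 alone (as TTTATA, 141 to 136 bases before the start), against 13.6% of promoters. The AP-2 consensus GCCNNNGGC was found in Gad2 and Slc18a3 (16.6% of promoters), and TAATCC, the core bound by the photoreceptor factor Crx, in Gad1 as GGATTA, 203 to 198 bases before the start (7.06%). The E-box CANNTG is held by 72.3% of promoters and separates little. None of these motifs contains another. These matches are descriptions of the letters only, and whether the occupancy table used these same starts is not given in the sources used here.

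The members as a group had much H3K27me3 and, by PN15, little H3K4me2. H3K4me2 stood above the olfactory receptor limit of its library at 1 or more stages in 10 of 10 members (80.4% of all symbols) and at all 4 stages in 9 of 10 (66.9% of symbols), the exception being Th. H3K27me3 was above its limit at 1 or more stages in 9 of 10 members (30.5% of symbols), and the same 9 were above it at all 4 stages (15.5% of symbols). The exception was Slc6a9. The median H3K27me3 of the members went from 338 (E17.5) through 478 (PN1) and 345 (PN7) down to 171 (PN15), and their median H3K4me2 was 44, 37, 32.5 and 20.5 in the same order.

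**Figure D1:**
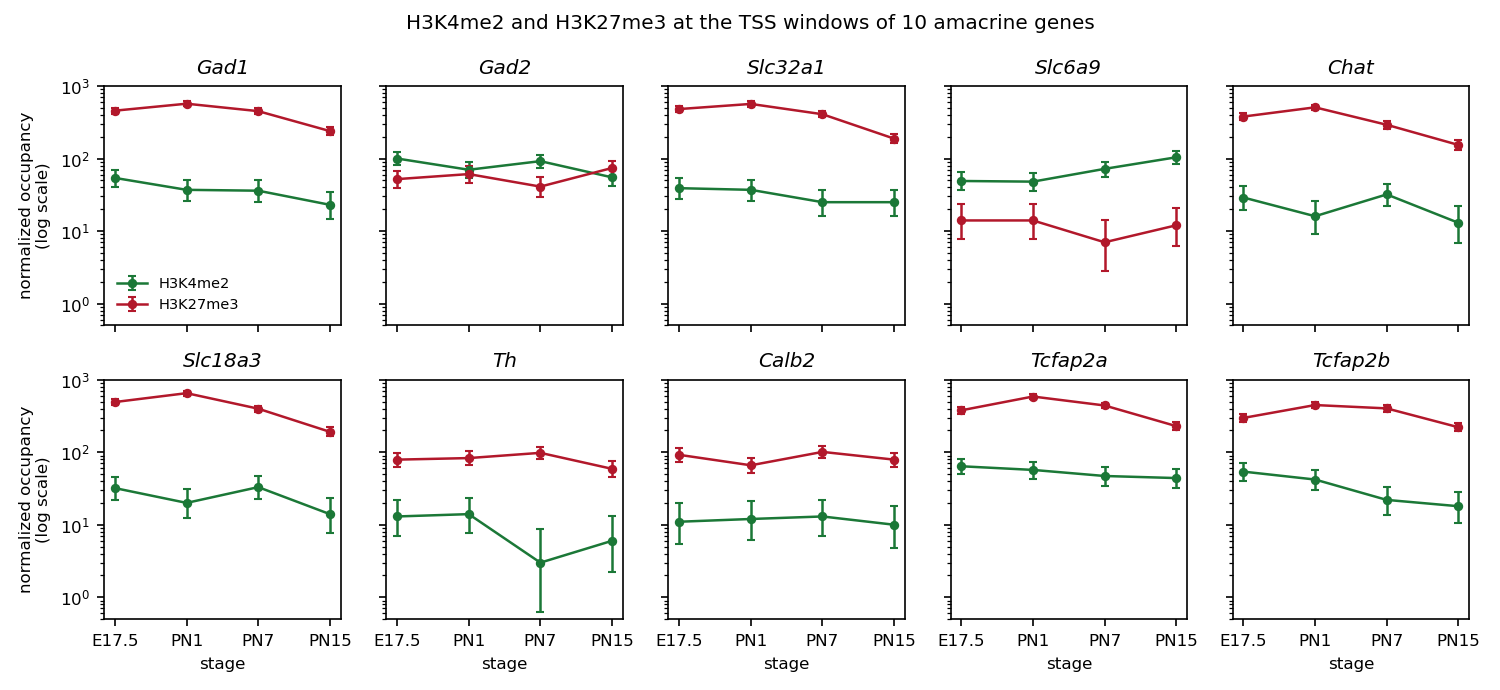
Normalized occupancy (log scale) of H3K4me2 (green) and H3K27me3 (red) in the 5 kb around the TSS of each member at E17.5, PN1, PN7 and PN15, 1 library per point, with exact Poisson 95% counting intervals as bars. H3K27me3 lies above H3K4me2 at every stage in 8 of the 10 panels, Slc6a9 has the opposite order throughout, and the curves of Gad2 cross between PN7 and PN15. The marks differ in antibody and library scale, so that the order of the curves does not give their relative amounts.

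Gad1 and Gad2 encode the paralogous enzymes (GAD67 and GAD65) that make GABA from glutamate, and they differed in the amounts of both marks. Gad1 (mm9 chr2:70391129-70440071, plus strand) had 457, 570, 450 and 239 units of H3K27me3 in the order of the stages, E17.5 first. Gad2 (mm9 chr2:22477725-22549394, plus strand) had 52, 61, 41 and 74. Gad1 therefore had 8.79 times the H3K27me3 of Gad2 at E17.5 (95% interval 6.59 to 11.9), 11 times at PN7 (7.96 to 15.5) and 3.23 times at PN15 (2.48 to 4.25), and no interval reached 1. In H3K4me2 the order was the opposite. Gad1 had 54, 37, 36 and 23 units and Gad2 had 100, 70, 92 and 55, so that Gad1 had 0.54 of the Gad2 value at E17.5 (0.38 to 0.759) and 0.418 of it at PN15 (0.245 to 0.692). At E17.5 the H3K4me2 of Gad2 was above that of 96.7% of symbols, and at PN15 above that of 58%.

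From E17.5 to PN15 the H3K4me2 of Gad1 changed by -1.20 on the log2 scale (pseudocount of 1; ratio 0.426, 0.249 to 0.706) and that of Gad2 by -0.85 (0.55, 0.388 to 0.772), while the median over all symbols was 0.13. Both intervals lay below 1, and Gad1 passed the 2-fold limit. Protein-coding starts of Gad1 are spread over 10370 bases in the mm9 annotation, of which its single entry covers 1 window. Gad1 had a lower H3K27me3 as well, by -0.93 on that scale (0.523, 0.445 to 0.613), whereas Gad2 was higher by 0.50 (1.42, 0.985 to 2.07), an interval that included 1. From PN7 to PN15 the H3K27me3 of Gad2 went from 41 to 74 (ratio 1.8, 1.22 to 2.71). It was the only one of the 10 members with a ratio above 1 beyond counting error in that interval, against 7.72% of symbols.

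Slc32a1, the vesicular transporter that loads both GABA and glycine into synaptic vesicles, had 481, 566, 408 and 188 units of H3K27me3 and 39, 37, 25 and 25 of H3K4me2. Its gene is short (mm9 chr2:158436494-158441484, plus strand). The H3K27me3 was 0.391 of the E17.5 value at PN15 (0.328 to 0.464), one of the 3 members at least 2-fold lower. Its H3K4me2 ratio was 0.641 (0.372 to 1.09), so that the difference was not detectable at this depth.

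Slc6a9 encodes GlyT1, the plasma membrane glycine transporter of glycinergic amacrine cells that Mueller glia express as well, and it stood apart from the other members in both marks. Its H3K4me2 was 49, 48, 72 and 104 units, the only H3K4me2 series among the 10 entries used that ended higher than it began, and its H3K27me3 was 14, 14, 7 and 12, below the olfactory receptor limit at every stage. The H3K4me2 ratio of PN15 to E17.5 was 2.12 (1.5 to 3.04), a log2 change of 1.07, and 0.94 above the all-symbol median. This change was larger than that of 94.4% of symbols. At PN15 the H3K4me2 of Slc6a9 was the highest of the members, and its interval was apart from that of the next, Gad2. The H3K27me3 of Slc32a1 was 34.4 times that of Slc6a9 at E17.5 (20.3 to 63.3) and 15.7 times at PN15 (8.76 to 30.9). Slc6a9 (mm9 chr4:117507111-117547803, plus strand) has protein-coding starts spread over 20986 bases in the mm9 annotation, and its single entry covers 1 window of 5 kb.

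Chat (choline acetyltransferase, which makes acetylcholine) and Slc18a3 (the vesicular acetylcholine transporter) form one locus, in which the Slc18a3 start lies 1059 bases from that of Chat in RefSeq (GRCm38.p6). Their windows would thus share 3942 bases, and the 2 genes are not independent measurements. Chat had 379, 508, 292 and 154 units of H3K27me3 and Slc18a3 had 492, 652, 398 and 191. The value of Slc18a3 was 1.3 times that of Chat at E17.5 (1.13 to 1.49) and 1.24 times at PN15 (0.998 to 1.54). Both genes were at least 2-fold lower at PN15 than at E17.5, with ratios of 0.406 (0.335 to 0.491) for Chat and 0.388 (0.327 to 0.46) for Slc18a3.

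The H3K4me2 of the cholinergic locus was low and uneven in time, at 29, 16, 32 and 13 units for Chat and 32, 20, 33 and 14 for Slc18a3. In both genes the values were higher at E17.5 and PN7 than at PN1 and PN15, but not every step exceeded counting error. From E17.5 to PN1 the ratio was 0.552 (0.28 to 1.05) for Chat and 0.625 (0.339 to 1.13) for Slc18a3. The all-symbol median change in that interval was -0.42 on the log2 scale. From PN1 to PN7 the ratios were 2 (1.07 to 3.9) and 1.65 (0.919 to 3.03). From E17.5 to PN15 the ratio was 0.448 (0.214 to 0.89) for Chat and 0.438 (0.216 to 0.843) for Slc18a3. From PN7 to PN15 it was 0.406 (0.196 to 0.796) and 0.424 (0.21 to 0.815), lower than in all but 0.858% and 0.953% of symbols. Chat spans mm9 chr14:33221389-33279095 on the minus strand.

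Th (tyrosine hydroxylase, the rate-limiting enzyme of dopamine synthesis, at mm9 chr7:150078657-150117033, minus strand) and Calb2 (calretinin, a calcium-binding protein of amacrine and ganglion cells, at mm9 chr8:112661402-112692110, minus strand) had low H3K4me2 and intermediate H3K27me3. Th had 13, 14, 3 and 6 units of H3K4me2, the lowest of the members at PN7 and PN15, and its PN15 value was under the olfactory receptor limit of 7. Its E17.5 to PN15 change of -1.0 met the 2-fold limit, but the ratio of 0.462 had an interval of 0.144 to 1.3. Its protein-coding starts are spread over 31114 bases in the mm9 annotation, more than the window of its single entry. Its H3K27me3 was 79, 83, 98 and 59 units, above that of 90.6% of symbols at E17.5.

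Calb2 had 11, 12, 13 and 10 units of H3K4me2, within counting error of each other, and 92, 66, 101 and 79 of H3K27me3. It was the only member with less H3K27me3 at PN1 than at E17.5 beyond counting error (ratio 0.717, 0.515 to 0.995), as had 1.64% of symbols. Before counting error is considered, 8 of the 10 members and 49.1% of symbols had more. Between E17.5 and PN15 neither mark of Calb2 differed detectably, with ratios of 0.909 (0.346 to 2.36) and 0.859 (0.628 to 1.17).

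Tcfap2a and Tcfap2b, the genes for AP-2 alpha and AP-2 beta, had H3K27me3 among the higher values of the members and more H3K4me2 than the cholinergic genes at E17.5. For Tcfap2a (mm9 chr13:40811044-40829192, minus strand) H3K27me3 was 378, 586, 441 and 229 and H3K4me2 was 64, 57, 47 and 44. For Tcfap2b (mm9 chr1:19198995-19228815, plus strand) H3K27me3 was 297, 447, 402 and 221 and H3K4me2 was 54, 42, 22 and 18. The paralogs parted in H3K4me2, in which Tcfap2a had 1.19 times the value of Tcfap2b at E17.5 (0.812 to 1.74) and 2.44 times at PN15 (1.38 to 4.49). In H3K27me3 Tcfap2a had 1.27 times the value of Tcfap2b at E17.5 (1.09 to 1.49) and 1.04 times at PN15 (0.858 to 1.25).

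Tcfap2b had the lowest H3K4me2 ratio of the members from E17.5 to PN15, at 0.333 (0.184 to 0.577), and that of Tcfap2a was 0.688 (0.457 to 1.03). These are the entries with the larger sum over the 8 libraries. The other Tcfap2b entry had 64, 38, 14 and 20 units of H3K4me2 and a ratio of 0.312 (0.179 to 0.523). Its H3K27me3 was 201, 302, 351 and 158, highest at PN7, whereas the entry used was highest at PN1. The other Tcfap2a entry had 52, 39, 72 and 59 units, a log2 change of 0.18 against -0.53 for the entry used, so that the direction of Tcfap2a depended on the entry. Protein-coding starts of the 2 genes are spread over 3405 and 3140 bases in the mm9 annotation.

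Ranked by H3K27me3 at E17.5, Slc18a3, Slc32a1, Gad1, Chat and Tcfap2a followed each other with overlapping intervals. Tcfap2b was apart from those above and below it, and so was the block of Calb2, Th and Gad2. Slc6a9 was last in all 4 libraries. The H3K4me2 order at E17.5, from Gad2 at 100 to Calb2 at 11, had no gap between neighbouring members that exceeded their intervals.

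Across the members, H3K4me2 from E17.5 to PN15 was at least 2-fold higher in 1 member (Slc6a9), as in 7.84% of all symbols, and at least 2-fold lower in 5 (Gad1, Chat, Slc18a3, Th and Tcfap2b), as in 11.7% of symbols. The median change of the members was -0.93, against 0.13 for all symbols, with 9 of 10 members lower and 37.7% of symbols lower. The ratio excluded 1 in counting error for 6 members, namely Slc6a9 upward (17% of symbols) and Chat, Gad1, Gad2, Slc18a3 and Tcfap2b downward (7.99% of symbols). With the 4 libraries rescaled to the same 75th percentile, the calls became 0 higher, with Slc6a9 no longer among them, and 6 lower, beside 4.06% and 13.4% of symbols. With a pseudocount of 5, Chat (-0.92), Slc18a3 (-0.96) and Th (-0.71) no longer met the limit, and 2 members were lower beside 4.75% of symbols.

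H3K27me3 from E17.5 to PN15 was at least 2-fold higher in 0 of 10 members, against 12.2% of symbols, and at least 2-fold lower in 3, Slc32a1, Chat and Slc18a3, against 16.1%. The median change was -0.57, where that of all symbols was 0.00. Of the 10 members, 6 had ratios below 1 beyond counting error (Chat, Gad1, Slc18a3, Slc32a1, Tcfap2a and Tcfap2b), against 14.1% of symbols. These 6 were also the members with at least 100 units at E17.5, a level that 1600 symbols (7.98%) had. Among those 1600 symbols 63.8% were at least 2-fold lower in H3K27me3 at PN15, with a median change of -1.16, beside 3 of the 6 members. The members' share was thus no higher than that of other symbols with as much of the mark. In H3K4me2, 4 of the 6 members (Gad1, Chat, Slc18a3 and Tcfap2b) were at least 2-fold lower, as were 24% of the 1600 symbols.

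**Figure D2:**
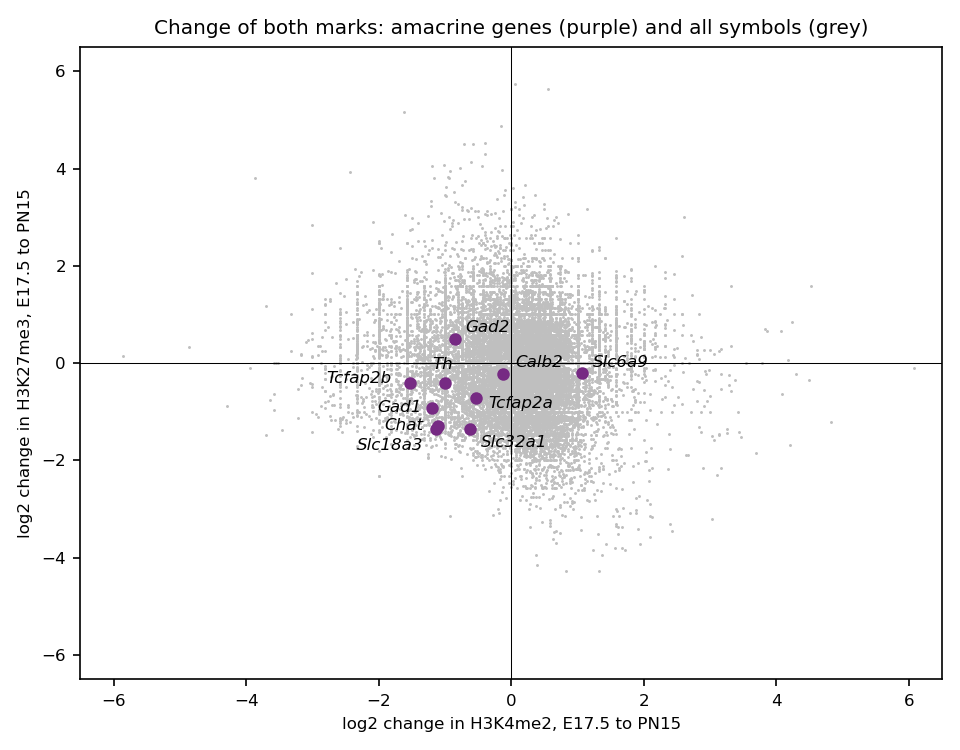
Log2 change from E17.5 to PN15 (pseudocount of 1) in H3K4me2 (x axis) and H3K27me3 (y axis), 1 point per symbol, with the 20044 symbols in grey and the 10 members in purple. Gad2 alone lies left of and above 0, Slc6a9 alone lies to the right at 1.07, and the other 8 lie below 0 on both axes.

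Between neighbouring stages, H3K27me3 had its maximum at PN1 in 6 of the 9 members above the background limit, against 45.6% of the 6115 symbols above it. The 6 were Gad1, Slc32a1, Chat, Slc18a3, Tcfap2a and Tcfap2b, and their ratios of PN1 to E17.5 ran from 1.18 to 1.55, all above 1 beyond counting error, as in 6.58% of all symbols. Among symbols with at least 100 units at E17.5, all of these 6 members, by the entries used, and 79.4% of 1600 symbols were highest at PN1. The maximum at PN1 was thus common among symbols rich in the mark. For Tcfap2b it depended on the entry, since its other entry was highest at PN7 (351 units, against 302 at PN1). From PN7 to PN15, 7 members (the same 6 and Th) were lower beyond counting error, against 12.2% of symbols, and Gad2 was higher. Among the 1600 symbols rich in the mark at E17.5, 90.5% were lower beyond counting error in that interval, beside all 6 of the members among them, and their median change was -0.94, near the -0.89 of the 10 members.

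Members and all symbols differed most in H3K4me2 in the last interval. From PN7 to PN15 the median H3K4me2 change was 1.0 over all symbols (quartiles 0.36 and 1.58) and -0.31 over the members. Of the 10 members 7 were lower, 1 (Slc32a1, 25 units at both stages) was level, and Slc6a9 and Th were higher but by less than the all-symbol median. Tcfap2b was lower by the entry used (-0.28), while its other entry was higher (0.49). Only 12.7% of symbols were lower. Chat, Gad2 and Slc18a3 were lower beyond counting error (2.99% of symbols), at changes of -1.24, -0.73 and -1.18. Among the 1600 symbols rich in H3K27me3 at E17.5 the share that was lower was 49.3%, with a median of 0.00, against 5 of the 6 members of that kind. The PN7 library, with 19.5% of its entries at 0, enters this comparison, and its part was not tested. In the 2 earlier intervals the members' median was -0.26 and 0.03, against -0.42 and -0.50 for all symbols. The shifts of all symbols differ with library scaling, which reduced their PN7 to PN15 median to 0.26 or 0.21. There 36.8% or 38.6% of symbols and 9 of 10 members were lower. All 10 members moved down as well, Chat from -1.24 to -2.01 or -2.05 and Gad1 from -0.62 to -1.41 or -1.45. Slc6a9 turned from 0.52 to -0.27 or -0.32 there, and Th alone stayed above 0 (0.16 or 0.11).

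**Figure D3:**
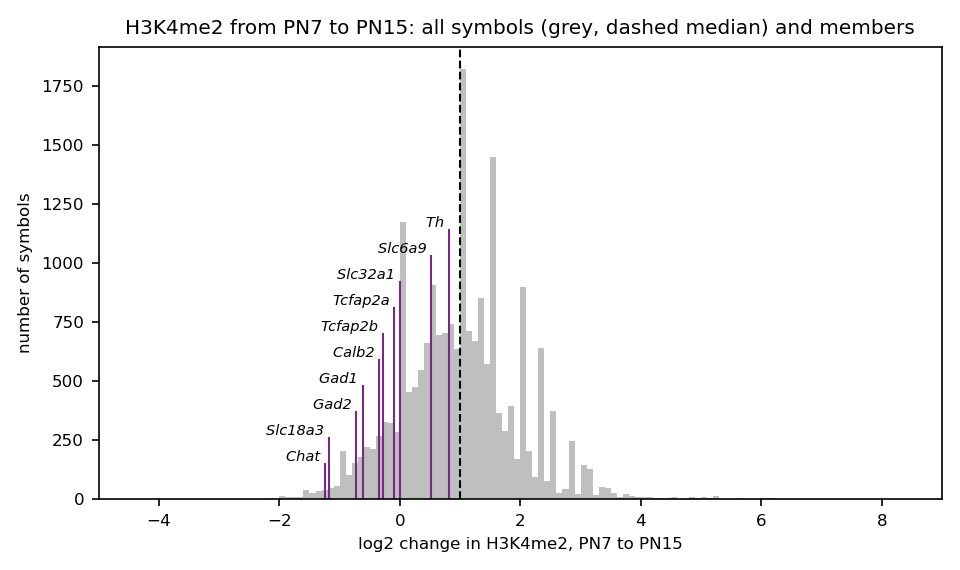
Number of symbols (y axis) by log2 change in H3K4me2 from PN7 to PN15 (x axis, pseudocount of 1), with the all-symbol median of 1.0 as a dashed line and each member as a purple line, drawn to different heights only to separate the names. All 10 members lie left of the median, from -1.24 for Chat to 0.81 for Th.

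Genes of the same pathways, listed apart from the members, were mixed. Of 11 genes that handle inhibitory transmitters, 3 were at least 2-fold lower and 0 higher in H3K4me2 (median -0.49), and 2 were lower and 2 higher in H3K27me3. One of each (Glul lower, Slc38a1 higher) stayed under the olfactory receptor limit of H3K27me3 at every stage. Over all symbols, 11.7% were lower and 7.84% higher in H3K4me2, and 16.1% were lower and 12.2% higher in H3K27me3. The largest H3K4me2 differences were those of Slc6a13 (a GABA transporter), at 17, 19, 4 and 2 units, and Slc6a5 (the neuronal glycine transporter GlyT2), at 46, 42, 22 and 7. Slc6a5 had 559, 572, 531 and 209 units of H3K27me3 and Slc6a13 had only 13 to 19. Thus both glycine transporter genes differed in opposite directions in H3K4me2, Slc6a9 with 104 units at PN15 and Slc6a5 with 7.

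Of 6 genes for acetylcholine handling, 1 was at least 2-fold higher and 1 lower in H3K4me2 (median 0.13), and 3 were lower in H3K27me3, with 0 of the 6 at 100 units of H3K27me3 or more at E17.5. Of those 3, Slc44a1 and Chka were under the olfactory receptor limit at every stage, and Ache was above it at first. The one that was higher, Slc44a1 (a choline transporter of many cell types), had 49, 25, 46 and 106 units of H3K4me2 and 18, 11, 9 and 5 of H3K27me3, unlike Chat and Slc18a3. Of the 10 dopamine genes found of 11 listed, 2 were lower and 0 higher in H3K4me2 (median 0.11), and 2 were lower in H3K27me3. Among all symbols 11.7% were lower and 7.84% higher in H3K4me2, and 16.1% were lower in H3K27me3. For so short a list, 2 lower dopamine genes in each mark are near these shares.

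The transcription factors of the amacrine lineage had a lower median change in H3K4me2 than the transmitter lists. Of 22 such genes, 11 were at least 2-fold lower and 0 higher in H3K4me2 (median -0.96), beside 11.7% and 7.84% of all symbols. At E17.5, 14 of the 22 had at least 100 units of H3K27me3 (7.98% of symbols). All 3 other AP-2 genes had that much, with a median of 344, 561, 371 and 223 by stage, and 2 of the 3 were at least 2-fold lower in each mark. In H3K27me3, 6 of the 22 were lower and 4 higher, beside 16.1% and 12.2% of all symbols. Six3, among the 4, stayed under the olfactory receptor limit at every stage (3, 10, 16 and 22 units). Pax6, the eye field factor kept in amacrine cells, had 4, 15, 113 and 178 units of H3K27me3 and 137, 97, 114 and 44 of H3K4me2. Sox2 had 26, 75, 112 and 182 of H3K27me3 and 104, 56, 124 and 36 of H3K4me2. Neurod1, a basic helix-loop-helix factor of amacrine cells and photoreceptors, went the other way, with 186, 230, 58 and 24 of H3K27me3 and 92, 52, 47 and 113 of H3K4me2. None of the 10 members had a gain of H3K27me3 like that of Pax6 and Sox2.

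Of 15 other amacrine markers found of 16 listed, 5 were at least 2-fold lower and 1 higher in H3K4me2 (median -0.58). The one that was higher was Gjd2 (connexin 36, the gap junction protein of AII amacrine cells that photoreceptors and bipolar cells use as well), with 35, 34, 69 and 152 units of H3K4me2 and 185, 222, 68 and 24 of H3K27me3. Over these 6 lists, 67 genes in all, 24 were at least 2-fold lower and 2 higher in H3K4me2, with a median of -0.58, beside 11.7% and 7.84% of all symbols. In H3K27me3 20 were lower and 7 higher, beside 16.1% and 12.2% of all symbols. Of the 28 with at least 100 units of H3K27me3 at E17.5, 15 were at least 2-fold lower in that mark and 14 in H3K4me2, where the shares among the 1600 symbols with that much were 63.8% and 24%.

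Ganglion cell genes, like the members, had a negative median change in both marks. Of 10 genes in that list, 5 were at least 2-fold lower and 1 higher in H3K4me2 (median -0.96), with medians of 51 units at E17.5 and 23 at PN15, and 4 were lower in H3K27me3, with medians of 268 and 84. The shares of all symbols were 11.7% lower and 7.84% higher in H3K4me2 and 16.1% lower in H3K27me3. The horizontal cell list of 7 genes had a median H3K4me2 change of -0.69 and the Mueller glia list of 7 genes one of -0.61. The 10 bipolar genes (0.33) and the 12 rod genes (3.02) had positive medians. In H3K27me3 the medians of the Mueller glia list (13 at E17.5 and 23 at PN15) and the rod list (11 and 10) were low. Single genes differed, since 4 of the 7 Mueller glia genes and 5 of the 12 rod genes passed the olfactory receptor limit at 1 or more stages (30.5% of symbols). Slc6a9 did so at none. Of the Mueller glia genes 3 were at least 2-fold higher and 1 lower (12.2% and 16.1% of symbols), and Rlbp1 had 8, 11, 55 and 136 units. The part of cell mixture in the members' values was not tested.

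**Figure D4:**
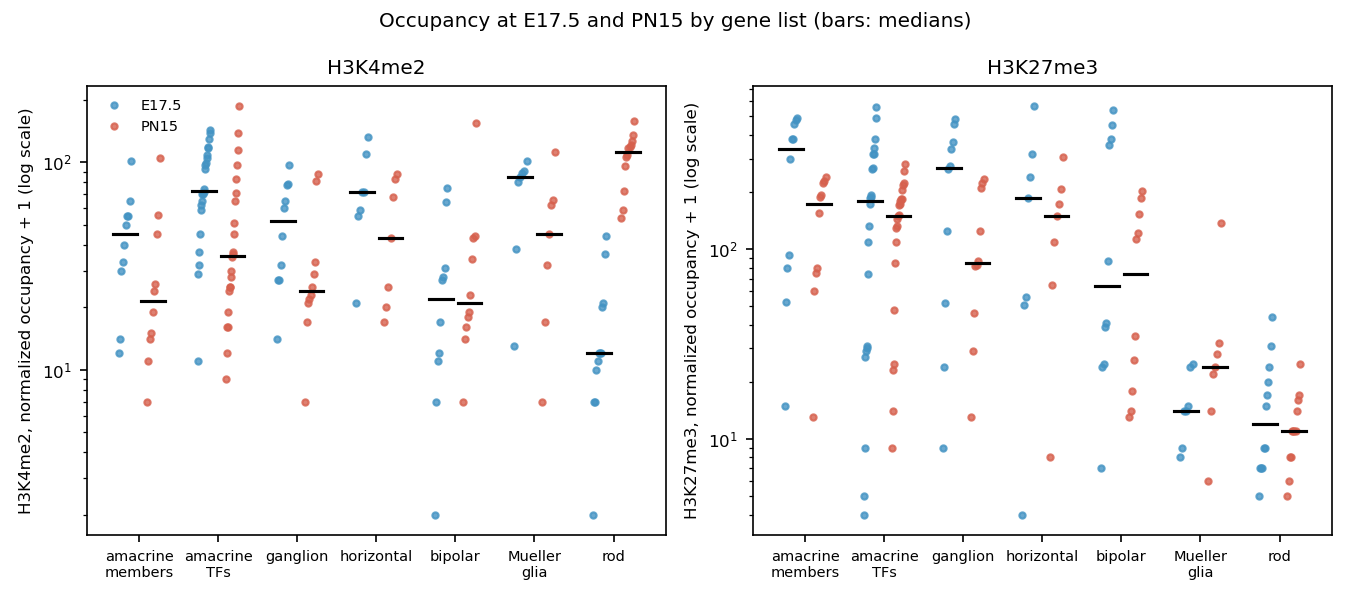
Normalized occupancy plus 1 (log scale) at E17.5 (blue) and PN15 (red) for each gene of 7 lists, with H3K4me2 on the left and H3K27me3 on the right, 1 point per gene and black bars at the medians. The members' median H3K4me2 is 44 at E17.5 and 20.5 at PN15 and their H3K27me3 338 and 171, and the rod list has the opposite course in H3K4me2, from 11 to 112.

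By the Euclidean distance between 8 log2 values (pseudocount of 1) over the 8 libraries, no member was among the 3 symbols nearest to another. The nearest 3 of Gad1 were Hmx3 (distance 0.55), Dmrt2 (0.56) and Dlx1 (0.63), those of Slc32a1 were Msx3 (0.62), Tbx5 (0.68) and Nkx1-2 (0.68), and those of Slc18a3 were Tbx1 (0.51), Nkx3-2 (0.51) and Fgf8 (0.54). Near Tcfap2a were Sp5 (0.58) and Gata3 (0.82), and the nearest of Tcfap2b were Tbx5 (0.67), Sp8 (0.75) and Nr2f2 (0.75). Chat was nearest to Scarf2 (0.66), Hs3st2 (0.72) and Tmem30b (0.73).

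The members with less H3K27me3 had other neighbours. Gad2 was nearest to Sox8 (0.51), Id3 (0.74) and Cdkn1a (0.85), and Slc6a9 to Aldh4a1 (0.59), Fam110a (0.72) and 4732415M23Rik (0.74). Th was nearest to Cyp4f39 (0.64), Prss50 (0.88) and Fbp1 (0.99), and Calb2 to Slc35f4 (0.98), Htra3 (0.99) and Cd34 (0.99). Gad1 lay 0.79 from Slc32a1 and 6.27 from its paralog Gad2, a distance at which Gad2 was symbol number 2205 in nearness to Gad1.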

How the data were processed

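H3K4me2 and H3K27me3 ChIP-Seq libraries of whole mouse retina were used, 1 for each mark at each of 4 stages, and samples were grouped by mark and stage from the labels. The authors mapped reads with Bowtie 0.12.4 to mm9, removed reads with several positions, placed each read at the midpoint of an assumed 190 bp fragment and summed the midpoints from 2.5 kb before to 2.5 kb after a RefSeq TSS. What they deposited is a score, the sum divided by the authors by the library's uniquely mapped reads and rounded, so no count model was used. The sources also give E17 and E17.5 for one stage, the labels' antibody fields for both marks hold the same pair of catalogue numbers in exchanged places (libraries were taken by the mark they name), and the letter b follows the mark in the H3K27me3 column of PN7. Columns without a sample numbered 0.

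Values were read as deposited with Python 3.11.15, pandas 2.3.3, numpy 2.4.6 and scipy 1.17.1, and plotted with matplotlib 3.10.9. Where a symbol had more than 1 entry, the one with most occupancy summed over both marks and all stages was used. Changes are log2 ratios with a pseudocount of 1, and a call is a change of at least 2-fold, with no low-value filter and no test. The calculation was tested on simulated data. Sequences came from RefSeq (GRCm38.p6) and gene positions from an mm9 annotation, which had no gene under the symbol Slc18a3.

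Like the members, the gene lists were chosen with earlier results of these data known. Named genes were all members, the 3 nearest symbols of each (1 of which is not reported here), the 2 largest differences in each direction and mark over the amacrine lists, and Actb, Gapdh and Uba1. The limit of 100 for H3K27me3, the PN7 to PN15 comparison and the sequences shown were chosen after values were seen. Alternatives were another pseudocount, fold limit, library scaling, entry, filter and background, and the omission of Slc18a3.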

Additional observations from a re-analysis of the deposited data

How the results depend on the processing

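No paired analysis was possible because each mark and stage had 1 library and the comparisons came from no test. With a pseudocount of 5 the members called in H3K4me2 from E17.5 to PN15 were 3 in place of 6 (Slc6a9 higher, Gad1 and Tcfap2b lower, beside 3.19% and 4.75% of symbols), since a larger pseudocount shrinks the changes of low values. With a limit of 1.5-fold, 5 members in place of 3 were called in H3K27me3, beside 28.7% of symbols lower. Over all alternatives the H3K4me2 median of the members lay between -1.16 and -0.76 and the H3K27me3 median between -0.64 and -0.42. The members with their highest H3K27me3 at PN1 numbered 5 to 7, beside 24.6% to 27% of all symbols. H3K27me3 was above background in 10 members with the vomeronasal receptor limit, in place of 9, a looser limit that 53.1% of symbols passed. Leaving out Slc18a3, an alternative chosen after seeing the data, gave 5 H3K4me2 calls (median -0.85) and 2 H3K27me3 calls (median -0.42) among 9 members. Of 118 changes of single members from E17.5 to PN15 under these alternatives, which took the mean over entries and not the other entry alone, 0 changed sign. The other Tcfap2a entry by itself had the opposite sign in H3K4me2 (0.18 against -0.53). Depth limited the H3K4me2 of Th and Calb2 most, at 3 to 14 units, and the absence of replicates leaves biological spread unmeasured in every comparison.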
